A study of Arabidopsis thaliana with 4 samples.

Results

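The UDP-glycosyltransferase (UGT) genes of Arabidopsis thaliana were followed in leaf discs treated with dithiothreitol (DTT), a small thiol that enters cells and reduces disulfide bonds. Members were selected by name, as probe sets whose only annotated gene symbol was UGT followed by a number, a letter and a number. There were 47 such probe sets, each for a different gene, among 22746 probe sets that were not array controls. All discs came from full-grown leaves of non-flowering Col-0 rosettes, taken as the night ended, and were kept in MES buffer in darkness for 1 h. Control discs had no DTT and treated discs had 5 mM DTT. Each group had 2 Affymetrix ATH1 arrays, labelled as biological replicates 1 and 2 and named here control 1, control 2, DTT 1 and DTT 2. Cutting and dark incubation were common to both groups, and a disc holds all cell types of the blade. In such tissue a fall in cell number of a type and less RNA per cell cannot be told apart.

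UGTs transfer a sugar, most often glucose, from a UDP-sugar to a small acceptor molecule. Acceptors in leaves include hormones, flavonoids, hydroxycinnamates, glucosinolate precursors and foreign compounds, and the attached sugar usually makes the product more soluble and fit for storage in the vacuole. The number in a UGT name marks a sequence family, and these are gathered into lettered groups of the plant family tree. The 47 genes fell into 11 numbers and 7 lettered groups, plus UGT80B1, a sterol glucosyltransferase outside them.

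Every value is a MAS5 signal, a linear intensity that the authors scaled to a trimmed mean of 100 on each array. The leaf marker RCA, Rubisco activase, had signals of 4077.4, 3808.7, 2751.6 and 2999.4 on control 1, DTT 1, control 2 and DTT 2. PYK10, a root beta-glucosidase, lay between 9.8 and 13.7. Of 12 mesophyll markers the annotation named only RCA alone on a probe set, and of 3 root markers only PYK10. With 8730 probe sets having no gene listed, the other markers may still be on the array. The arrays separated by replicate number. Over 18 probe sets for hybridization control transcripts, added at fixed amounts, control 1 exceeded control 2 by a median ratio of 1.88 and DTT 1 exceeded DTT 2 by 1.69. Treated arrays had median ratios of 0.969 and 1.06 to the controls of replicates 1 and 2. Changes are therefore given within each replicate number, and tests both without that number and with it as a block, a fit that leaves 1 residual degree of freedom.

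In control discs the mean signals of the UGT probe sets ran from 0.45 for UGT78D3 to 636 for UGT85A2, with a median of 20.7 over the 47, against 29.9 over all probe sets. Probe sets bind with different strength, so this order of signals is not an order of transcript levels. A filter kept probe sets with a mean log2 signal in the upper 60% (4.08, a signal of 16.9), and 23 of the 47 genes passed it, against 60.0% of all probe sets. On every array 16 genes lay above that level and 19 lay below it. Just above the limit were UGT76E12, UGT84A4 and UGT85A3, with mean log2 signals of 4.09, 4.16 and 4.32. Just below it were UGT85A5, UGT72B3 and UGT73C7, with 4.03, 3.99 and 3.92.

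**Figure D1:**
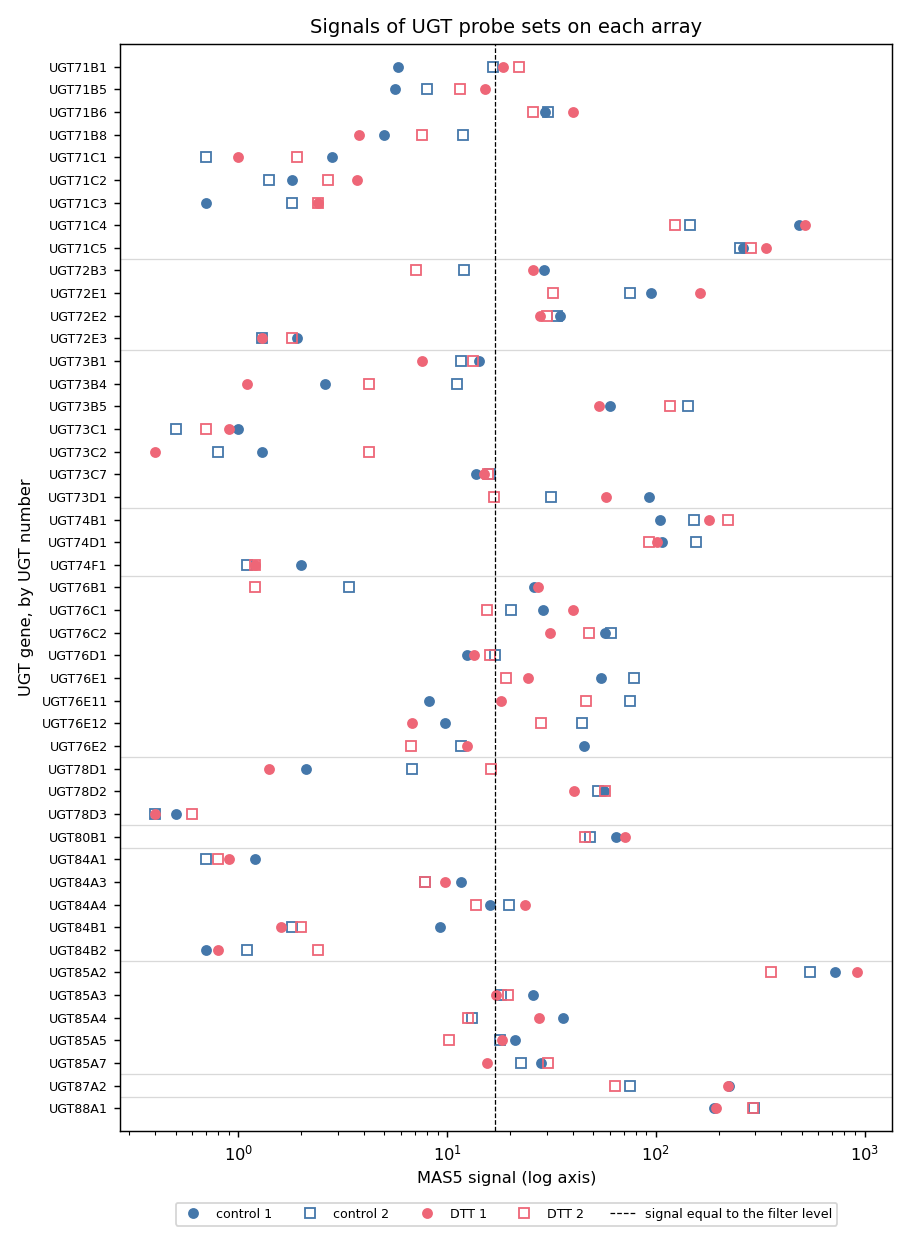
MAS5 signal (horizontal, log axis) of the 47 UGT probe sets (vertical, ordered by UGT number) on each of the 4 arrays; circles are replicate 1, squares replicate 2, blue control and red DTT, and the dashed line is a signal of 16.9. The signals span 0.4 to 923.8, and 19 genes lie left of the line on every array.

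Mean control signals above 100 were found for 8 probe sets, which are described first because signal noise is greatest at low values. UGT85A2 had signals of 724.7 and 546.6 in the controls and 923.8 and 356.3 with DTT. The DTT arrays of UGT85A2 lay on either side of the controls. UGT71C4 had 487.0 and 145.6 in the controls and 516.8 and 123.5 with DTT, so its arrays grouped by replicate and not by treatment. UGT71C5, which glucosylates abscisic acid, had control signals of 261.6 and 254.0 and DTT signals of 338.8 and 286.0. Both DTT arrays were above both controls, by a log2 change of 0.27 (SE 0.23, limma with the block, adjusted p = 0.917). UGT88A1 had 191.0 and 293.9 in the controls and 193.4 and 292.4 with DTT, a log2 change of 0.01 (SE 0.23). Its signals with and without DTT were close within each replicate. The other genes above 100 were UGT87A2, reported to act in flowering time, at 149 ± 105 (SD, n = 2), UGT74D1 and UGT74B1 at 131 ± 34.4 and 129 ± 34.2, and UGT73B5 at 102 ± 58.6.

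Of the UGT genes tested, only UGT76E1 was called, and only where replicate number was a block. Without the block, limma called 0 of 23 UGT genes at an adjusted p under 0.05, with 1 at an unadjusted p under 0.05, against 0 of 13648 probe sets (0%) and 0.696%. With the block it called 1 of 23, UGT76E1, against 0.923% of all probe sets tested, and 4 had an unadjusted p under 0.05, against 8.00%. The call of UGT76E1 was known from an earlier analysis of these arrays. The counts given here of small unadjusted p-values and of lower genes include this gene, so they are a description. In both replicates 9 of the 23 were lower and 2 higher, against 27.0% and 24.3% of all tested, and 12 went opposite ways. Both DTT arrays lay below both controls for 4 genes, UGT72E2, UGT74D1, UGT76C2 and UGT76E1, against 9.81% of all. They lay above for 2, UGT71C5 and UGT74B1, against 8.01%.

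The balance of lower and higher genes differed between replicates. The median log2 change of the 23 genes was -0.01 in replicate 1 and -0.24 in replicate 2, where all tested probe sets had -0.03 and 0.01. Lower with DTT were 12 of 23 genes in replicate 1 and 18 of 23 in replicate 2, against 53.5% and 49.0% of all tested. The median of the averaged changes was -0.19, against -0.01. It was -0.05, -0.28, -0.24 and 0.09 without control 1, DTT 1, control 2 and DTT 2, which unbalances replicate number. All tested probe sets then had medians of 0.04, -0.06, -0.10 and 0.03. Single changes ranged from -1.60 to 0.66, and their SD was 0.43, against 0.33 over all tested.

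**Figure D2:**
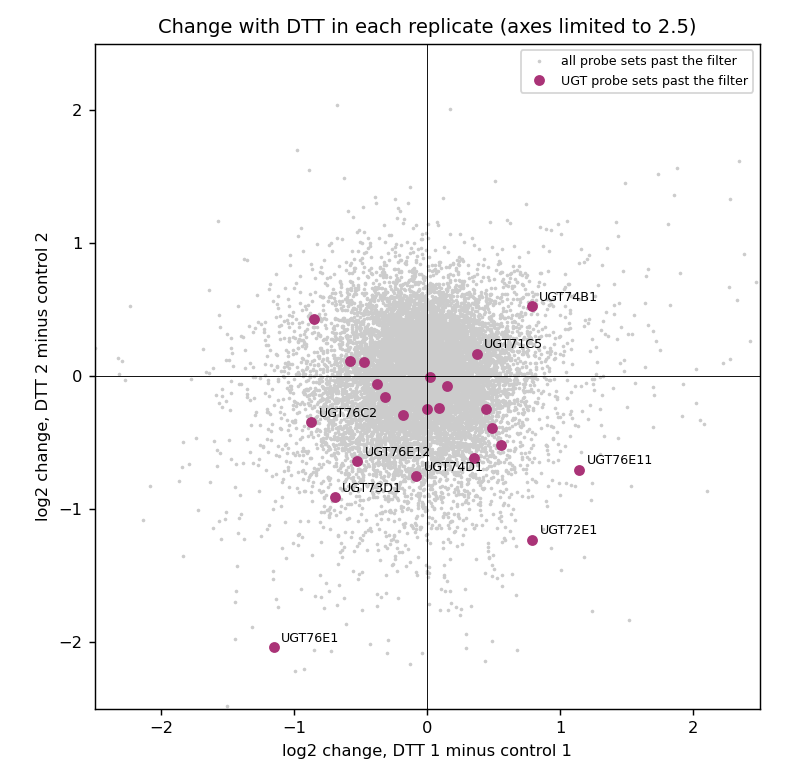
Log2 change with DTT in replicate 1 (horizontal) against replicate 2 (vertical) for 13648 probe sets past the filter (grey) and the 23 UGT probe sets among them (purple). UGT76E1 is the lowest UGT gene on both axes, at -1.16 and -2.04; axes end at 2.5, which leaves 31 probe sets and 0 UGT genes outside.

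UGT76 genes (lettered group H) act on hormones and defence compounds. UGT76E1, which glucosylates an oxidised jasmonate, had signals of 54.6 and 78.9 in the controls and 24.5 and 19.2 with DTT. Both DTT arrays were below both controls. Mean signals were 66.8 ± 17.2 without and 21.9 ± 3.75 with DTT (SD, n = 2 each). UGT76E1 fell 3.03-fold in the fit with the block, where limma gave an adjusted p of 0.00276 (log2 -1.60, SE 0.29). Within replicate 1 the signal was 2.23-fold lower, and within replicate 2 it was 4.11-fold lower. This call was known from an earlier analysis of these arrays, so it is a description. Without the block the SE was 0.38 and the limma adjusted p was 0.9999 (unadjusted 0.00667). With the block the call was also lost when no filter was set (adjusted p = 0.654) or each array was set to one median (adjusted p = 0.481), and a filter at the 60th percentile left the gene out.

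The neighbouring gene UGT76E2 had signals of 45.1 and 11.6 in the controls and 12.4 and 6.7 with DTT. It was lower in both replicates, with log2 changes of -1.86 and -0.79, but DTT 1 was above control 2. Its mean log2 signal lay below the filter, so it was not tested. UGT76E12 had control signals of 9.8 and 44.1 and DTT signals of 6.8 and 28.3. The log2 changes were -0.53 and -0.64 (SE 0.37, adjusted p = 0.813 with the block), and replicate 2 was higher than replicate 1 in both groups. UGT76E11, reported to act on flavonoids, had 8.2 and 75.2 in the controls and 18.1 and 46.2 with DTT. Its replicates moved in opposite directions, by log2 changes of 1.14 and -0.70.

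Cytokinins, the cell division hormones, are glucosylated by UGT76C1 and UGT76C2. UGT76C2 had signals of 57.1 and 61.0 in the controls and 31.2 and 48.1 with DTT. Both DTT arrays were below both controls, by log2 changes of -0.87 and -0.34 (SE 0.26, adjusted p = 0.508 with the block, unadjusted 0.0283). UGT76C1 had 28.7 and 20.3 in the controls and 40.1 and 15.5 with DTT, with changes of 0.48 and -0.39. UGT76B1, which glucosylates isoleucic acid and other immune signals, had 26.1 and 3.4 in the controls and 27.4 and 1.2 with DTT. UGT76D1, which acts on dihydroxybenzoic acids, had 12.5 and 16.9 in the controls and 13.4 and 16.0 with DTT. Of the 8 UGT76 genes, filtered or not, 4 were lower in both replicates and 0 were higher in both, against 28.9% and 20.6% of all probe sets without a filter. Of the 5 tested, 1 was called with the block, against 0.923% of all tested. This was UGT76E1, whose call was known beforehand. The median log2 change of the 5 past the filter was -0.58, with -0.53 and -0.64 in the replicates. All tested probe sets had -0.01, with -0.03 and 0.01. Each of these UGT76 medians was the value of UGT76E12, a gene just above the filter. The 5 went different ways in replicate 1, where 3 were lower and 2, UGT76C1 and UGT76E11, were higher.

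**Figure D3:**
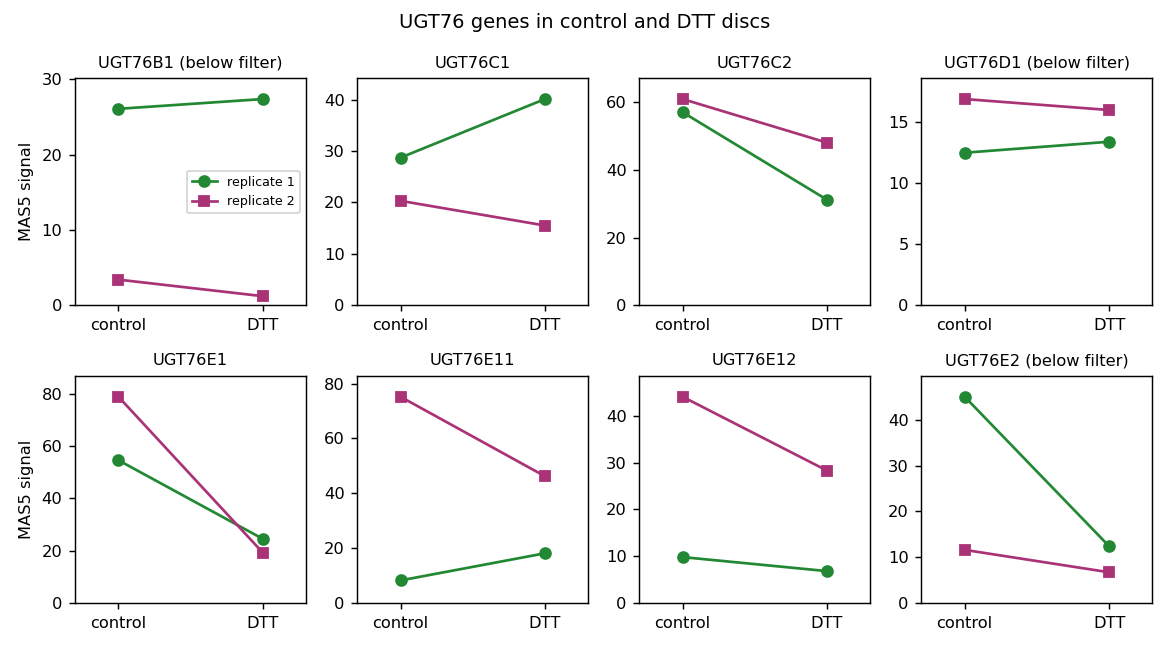
MAS5 signals (linear axes from 0, a scale per panel) of the 8 UGT76 genes in control and DTT discs; lines join the arrays of a replicate number, which the labels do not describe as pairs. UGT76E1 goes from 54.6 to 24.5 and from 78.9 to 19.2, while UGT76E11 moves in opposite directions.

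UGT74 genes and the related UGT84 genes (group L) form glucose esters and thioglucosides. UGT74B1, the S-glucosyltransferase of glucosinolate synthesis, had the largest mean difference upwards of the 23 genes. Its signals were 104.8 and 153.2 in the controls and 180.6 and 220.6 with DTT. Both DTT arrays were above both controls, by 1.72-fold and 1.44-fold within the replicates (log2 0.66, SE 0.23, limma adjusted p = 0.309 with the block, unadjusted 0.00957). UGT74D1, an auxin glucosyltransferase, had 106.9 and 155.5 in the controls and 100.9 and 92.4 with DTT. The log2 changes of -0.08 and -0.75 came mainly from replicate 2 (adjusted p = 0.769). UGT84A4, a hydroxycinnamate glucosyltransferase, had changes of 0.55 and -0.51, which cancel in the mean. Below the filter were UGT74F1, of salicylate glucosylation, the hydroxycinnamate enzymes UGT84A1 and UGT84A3, the auxin enzyme UGT84B1, and UGT84B2. Their signals ran from 0.7 to 11.7.

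UGT73 genes (group D) include enzymes of detoxification and defence. UGT73D1 had signals of 93.2 and 31.5 in the controls and 57.6 and 16.8 with DTT. It was 1.62-fold and 1.87-fold lower within the replicates, though DTT 1 was above control 2 (log2 -0.80, SE 0.27, adjusted p = 0.241 with the block, unadjusted 0.00584). UGT73D1 and UGT76E1 were the 2 of 23 genes lower by at least 1.5-fold in both replicates, against 1.58% of all tested. The fall of UGT76E1 was known beforehand, so this count is a description. No UGT gene past the filter was higher by that much in both, against 0.755%. UGT73B5 had 60.3 and 143.2 in the controls and 53.2 and 117.0 with DTT, changes of -0.18 and -0.29. Its neighbour UGT73B4 had 2.6 and 11.1 in the controls and 1.1 and 4.2 with DTT, lower in both replicates but at signals below the filter. UGT73B1, UGT73C1, UGT73C2 and UGT73C7 lay between 0.4 and 16.0, also below it.

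UGT71, UGT72 and UGT88 genes form group E. UGT71 genes, several of which act on abscisic acid, were higher with DTT in both replicates for 5 of 9 genes and lower in both for 1, against 20.6% and 28.9% of all probe sets without a filter. In all 5 both DTT arrays were above both controls, as for 7.68% of all probe sets without a filter. Of the 5, only UGT71C5 passed the filter. UGT71B1 had 5.8 and 16.5 in the controls and 18.5 and 22.1 with DTT, and UGT71B5 had 5.6 and 8.0 against 15.2 and 11.5. UGT71C2 and UGT71C3 lay between 0.7 and 3.7, at the low end of the scale, where MAS5 signals are noisiest. UGT71B6, of abscisic acid glucosylation, had log2 changes of 0.44 and -0.24 (adjusted p = 0.996). UGT71B8, the gene lower in both, lay between 3.8 and 11.9, and UGT71C1 between 0.7 and 2.8.

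Monolignols and related phenylpropanoids are the acceptors of UGT72E1, UGT72E2 and UGT72E3. UGT72E1 had signals of 94.5 and 74.9 in the controls and 163.4 and 32.0 with DTT. The DTT arrays lay at opposite extremes, with log2 changes of 0.79 and -1.23. UGT72E2 had 34.9 and 33.6 in the controls and 28.0 and 30.1 with DTT. The controls of UGT72E2 differed by less than those of most members, and its change of -0.24 (SE 0.29, adjusted p = 0.975) did not pass the test. UGT72E3 had 1.3 to 1.9 and UGT72B3 had 7.1 to 29.2, both below the filter.

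UGT78 genes (group F) glycosylate flavonols and anthocyanidins. UGT78D2, the flavonoid 3-O-glucosyltransferase, had 56.6 and 52.8 in the controls and 40.6 and 56.9 with DTT, with log2 changes of -0.48 and 0.11. UGT78D1, a flavonol rhamnosyltransferase, lay between 1.4 and 16.3, and UGT78D3, an arabinosyltransferase, between 0.4 and 0.6. UGT80B1, the sterol enzyme, had 64.6 and 48.2 in the controls and 71.5 and 45.9 with DTT. Of the UGT85 genes (group G), UGT85A3, UGT85A4 and UGT85A7 had mean log2 changes between -0.24 and -0.21 (adjusted p from 0.980 to 0.981). In replicates 1 and 2, UGT85A3 had changes of -0.58 and 0.11 and UGT85A7 had -0.85 and 0.43, in opposite directions. Only UGT85A4 of these was lower in both, with -0.38 and -0.06. UGT85A5, below the filter, lay between 10.2 and 21.2. UGT87A2 (group J) had 223.1 and 75.2 in the controls and 222.2 and 63.6 with DTT, so its groups overlapped and its replicates did not.

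As across the array, signals often differed more between replicate numbers than between treatments. For 16 of the 23 UGT genes (69.6%) the log2 difference between replicates 2 and 1 was larger than the change with DTT, against 75.2% of all tested. The controls alone differed at least 2-fold for 7 of the 23, against 13.6% of all. UGT76E11 and UGT76E12 were higher in control 2, by 3.20 and 2.17 on the log2 scale, and UGT73B5 by 1.25. Lower in control 2 were UGT71C4, UGT87A2, UGT73D1 and UGT85A4, by log2 differences of -1.74, -1.57, -1.56 and -1.46. UGT76E1 differed by 0.53 between control 2 and control 1 and by -0.35 between DTT 2 and DTT 1, a mean of 0.09. Its change of -1.60 was larger than either. For UGT74B1 and UGT76C2 the change with DTT was also larger than the mean difference between replicates.

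**Figure D4:**
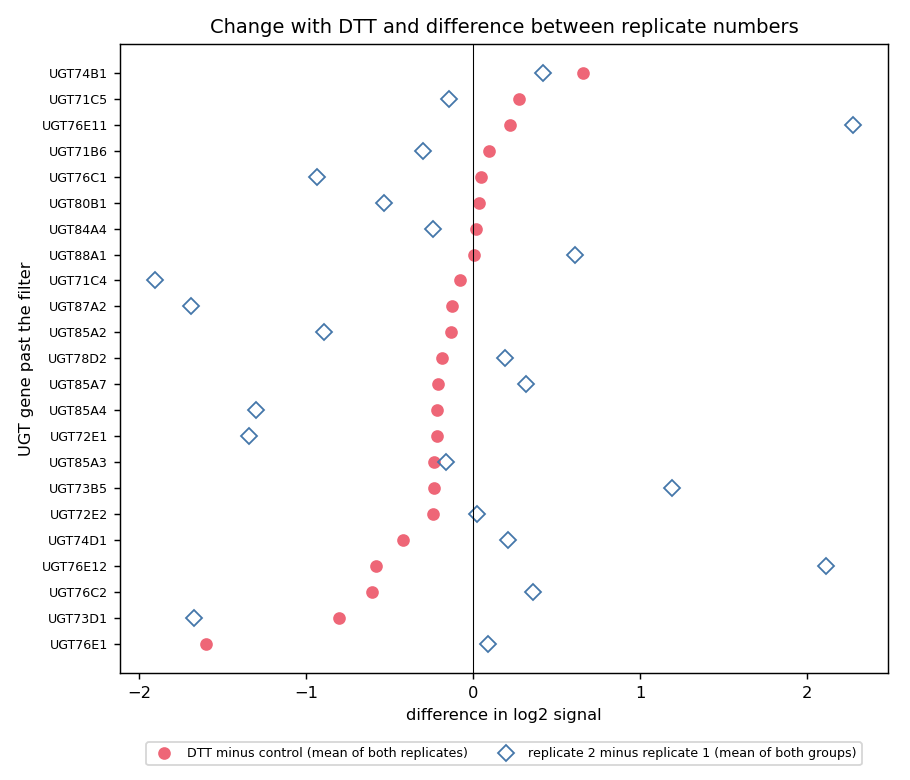
Difference in log2 signal (horizontal) for the 23 UGT genes past the filter (vertical, ordered by change with DTT); red circles are DTT minus control, blue diamonds replicate 2 minus replicate 1. For 16 genes the diamond is farther from 0 than the circle, up to 2.27 for UGT76E11, while UGT76E1 has -1.60 against a mean of 0.09 from differences of 0.53 and -0.35.

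Many of the genes are chromosomal neighbours. In the RefSeq gene table (TAIR10.1, used for order only), 24 of the 47 lay in 10 runs with no other protein-coding gene between them, the longest with 4 genes. UGT76E1 and UGT76E2 were lower with DTT in both replicates, and so were the neighbours UGT73B5 and UGT73B4. In the other 8 runs at least 1 gene had changes that were neither lower nor higher in both replicates. UGT76C2 had log2 changes of -0.87 and -0.34 where UGT76C1 beside it had 0.48 and -0.39. In the run of UGT85A7, UGT85A2, UGT85A5 and UGT85A3 the replicate 1 changes were -0.85, 0.35, -0.20 and -0.58. Cross-hybridization between neighbours of similar sequence was not tested.

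Partner genes of the family were read from 4 lists. A gene counted as measured only if the annotation used here named it alone on a probe set. As 8730 probe sets had no gene listed, a listed gene not found may still be on the array. There were 20 measured genes, of which 7 passed the filter and were tested. None of the 7 was called in either fit, against 0% of all tested without the block and 0.923% with it. UDP-sugar supply had 1 measured gene of 28. This was USP, a UDP-sugar pyrophosphorylase, with log2 changes of 0.15 and -0.28. Phenylpropanoid and flavonoid synthesis had 2 of 25, and HCT, a hydroxycinnamoyl transferase, had -0.27 and -0.53 (adjusted p = 0.687). DFR, of anthocyanin synthesis, had signals of 24.2 and 17.0 in the controls and 15.9 and 8.8 with DTT, below the filter. For the response to foreign compounds, 11 tau-class glutathione transferases were measured and 4 passed the filter. The 7 other genes of that list were not found among the annotated probe sets. GSTU27 and GSTU20 had mean changes of 0.26 and 0.14, and GSTU16 and GSTU18 had -0.10 and 0.01, the median of the 4 being 0.07. Below the filter, GSTU15, GSTU22 and GSTU23 were lower in both replicates, and GSTU21, GSTU25, GSTU26 and GSTU28 were neither lower nor higher in both. GSTU22 had 43.9 and 15.0 in the controls and 8.8 and 12.0 with DTT. Hormone conjugation had 6 measured genes. WES1, an auxin-conjugating enzyme and the only one past the filter, had a mean change of -0.09. Below the filter, GH3.3, GH3.9 and GH3.17 were lower in both replicates, BSMT1 was higher in both and GH3.1 went opposite ways. Of all probe sets without a filter, 28.9% were lower in both and 20.6% higher in both. Signals of these 5 hormone conjugation genes below the filter ran from 1.0 to 13.5.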

How the data were processed

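The authors deposited 1 linear intensity (signal) per probe set and array for 4 arrays. MAS5 made them, per the submitters' processing notes, with its version and settings not given in the sources used here. With 2% trimmed from either end, each array's mean was 100 and medians ran from 25.4 to 32.8, so a change of total mRNA cannot be seen. Signals were floored at 0.1 and log2 taken. Probe sets below the 40th percentile of mean log2 signal were left out, and 13648 were tested with limma 3.58.1 (R 4.3.3, lmFit and eBayes with trend, Benjamini-Hochberg over all of them, threshold 0.05). The fits were tested on simulated data with known changes and the same noise for probe sets of similar mean signal. That simulation cannot show how the block fit handles variances that differ between such probe sets. The block fit has 1 residual degree of freedom and 25.5 prior degrees of freedom, which eBayes takes from the variances of all tested probe sets. Its p-values and SEs thus rest mostly on variance shared across probe sets, and not on the spread of the single gene. The labels do not say that replicate numbers mark a shared batch; differences between replicates in control and DTT correlated at 0.746 across tested probe sets, which are not independent. Groups came from sample titles and gene names from the platform annotation, with 13513 probe sets having 1 gene, 503 several and 8730 none listed. All 47 members matched a RefSeq locus. A further 17 UGT genes of that table were not analysed here as members, including those on 3 probe sets listing several genes. Sequences were not used here. Named genes were UGT76E1, genes called in either fit, the 4 highest in control, up to 6 largest rises and falls of 1 sign in both replicates, the 2 whose replicates differ most, and UGT76 genes past the filter; others are described by group and were chosen after their values were seen. Of the partner genes, those called or of smallest p were to be named, and the other measured genes were added. Members and lists were chosen with earlier results of these data known. Alternatives were other scalings, pseudocounts, filters and variance models, probe sets ending in _at, the block, and leaving out each array. With 2 arrays per group their number limits precision. Plots were drawn with matplotlib 3.10.9 under Python 3.11.15.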

Additional observations from a re-analysis of the deposited data

How the results depend on the processing

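Without the block, 0 UGT genes and 0 probe sets were called under every alternative with 4 arrays, and 0 to 3 probe sets without single arrays (3 without DTT 1). With the replicate block, 1 UGT gene and 126 probe sets were called. The blocked count of probe sets was 71 with quantile normalization, 3 with one median per array, 58 with log2(signal + 16), 135 with log2(signal + 64), 3 with no filter, 176 with the filter at the 60th percentile, 35 without the variance trend, 105 with robust eBayes and 118 with probe sets ending in _at only. Under these, 1 UGT gene was called except with one median per array, no filter and the stricter filter, where 0 were. The stricter filter left UGT76E1 out. Prior degrees of freedom in the block fit were 25.5. They were 5.84 with one median per array, 5.34 with no filter and 71.5 with the stricter filter. The cause of the other losses was not tested. The log2 change of UGT76E1 was -1.60 with the block, past the threshold (adjusted p = 0.00276). It was -1.50 with quantile normalization (adjusted p = 0.0224 with the block), -1.12 with log2(signal + 16) (0.0197), -0.60 with log2(signal + 64) (0.00122), and it ranged from -1.86 to -1.33 without single arrays. The median change of the UGT genes ranged from -0.28 to 0.088 without single arrays. It was -0.07 to -0.19 otherwise. Leaving out an array unbalances replicate number, and such changes ranged from -1.11 to 0.96 for UGT71C4, -1.39 to 0.96 for UGT72E1, -1.69 to 0.088 for UGT73D1, -0.64 to 0.73 for UGT76C1, -1.38 to 1.82 for UGT76E11, -1.67 to 0.50 for UGT76E12, -0.82 to 0.55 for UGT85A2 and -0.31 to 0.32 for UGT88A1. Other scalings, with or without the block, turned UGT71C4 from -0.08 to 0.012 (one median per array) and UGT88A1 from 0.01 to -0.018 (quantile normalization). Pseudocounts of 16 and 64 turned UGT76E11 from 0.22 to -0.029 and -0.076. Of the genes named by the rule above, UGT71C5, UGT72E2, UGT74B1, UGT74D1, UGT76C2 and UGT76E1 kept their direction under every alternative that tested them. Changes of other single UGT genes under the alternatives are not given here. With the block kept, leaving out an array leaves 1 pair and no test.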

Other observations

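UGT genes on probe sets that list several genes belonged to no comparison above. The probe set for UGT73B2 and UGT73B3, flavonoid and defence-related glucosyltransferases, had signals of 341.4 and 465.7 in the controls and 256.3 and 421.0 with DTT. The one for UGT89B1, a flavonol glucosyltransferase, and AT1G73885 had 109.9 and 119.2 in the controls and 133.3 and 99.4 with DTT. The one for UGT71D1 and AT2G29710 had 26.0 and 52.1 in the controls and 15.3 and 51.5 with DTT.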
